A study of Mus musculus with 3 samples.

Results

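Chromatin remodelers and bromodomain proteins were examined in cultured mouse astrocytes as the genes whose symbol begins with Chd, Arid or Brd and a digit, with Smarc and a letter from a to e, or with Ino80. The rule found 48 of the 19471 genes in the table, and it selects by symbol, not by measured values. The members, and the lists and pairs used below, were chosen with earlier results of these data known. By known complex they were 14 genes of SWI/SNF, 10 of the CHD family, 2 ISWI motors, 5 INO80 subunits, 5 genes of the BET family and other bromodomain proteins, 6 other ARID genes and 2 other SNF2-like genes. The 4 remaining entries were the pseudogenes Smarca5-ps and Smarce1-ps1, the non-coding gene Ino80dos and Brd8dc, which are not placed in a complex here. Arid3c was listed but had no row and was not analysed here.

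The cells were cortical astrocytes from wild-type (WT) pups of postnatal day 1, cultured for 7 days before RNA was taken, although the sample descriptions carry a day 0 name. The 3 libraries, replicates 1, 2 and 3, came from pups 5, 6 and 8 and form 1 group, which the titles call biological replicates. No mutant, treated or older group was analysed, so genes were compared within libraries and libraries with each other. The series concerns the histone variant H2BE, and all 3 libraries are wild type. The labels give 1 pup to each library, so effects of the animal, of its culture and of the library cannot be told apart.

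Chromatin remodelers are motors that use ATP to slide, evict or exchange nucleosomes, and their ATPase subunits share a SNF2-type helicase core. SWI/SNF complexes, called BAF in mammals, open regulatory DNA and change subunits as neural progenitors become neurons. CHD proteins carry paired chromodomains, ISWI motors space nucleosomes evenly, and INO80 removes histone variants and acts at replication forks and DNA breaks. A bromodomain binds acetylated lysine, and BET proteins carry a pair of them with which they read acetylated chromatin.

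Depth was 14380993, 25128038 and 9858626 reads in replicates 1, 2 and 3, a 2.55-fold range. All 8 astrocyte markers reached a mean normalized count of 10, with a summed level of 109479.8 to 129313. The summed level of 8 microglial markers lay between 16879.8 and 24252, that of 6 ependymal markers between 10375 and 14091, and that of 6 cell cycle genes between 9074 and 11030.0. Oligodendrocyte lineage markers summed to between 10791 and 12647, and fibroblast markers to between 5015 and 5748. The highest mean was 9966 in the ependymal list and 5896 in the oligodendrocyte list, against medians of the detected genes of 514 and 270. Of 8 neuronal markers 4 reached that mean, and Rbfox3, Snap25, Slc17a7 and Nefl were under it. Xist stood at 3000.5 in replicate 1, 0.472 in replicate 2 and 4.78 in replicate 3, whereas the Y-linked gene Ddx3y stood at 0.813, 688 and 936. In such bulk RNA, fewer cells of a type and less RNA per cell cannot be told apart.

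Promoters of 2 pairs of related genes are shown because their members stood furthest apart in level. Of the 48 symbols, 33 matched the RefSeq promoter table of build GRCm38.p6, with 44 windows of 250 bases before to 50 bases after a start site. The windows below are those nearest to the annotated gene start, read 5′ to 3′ on the gene's strand, with each CpG in capitals. Chd4, the main motor of the NuRD deacetylase complex, has chr6:125095731-125096030 on the plus strand. Chd5, its neuronal relative, has chr4:152338401-152338700 on the plus strand. Smarca5, the widespread ISWI motor, has chr8:80739410-80739709 on the minus strand. Smarca1, the other ISWI motor, has chrX:47892564-47892863 on the minus strand.
Chd4: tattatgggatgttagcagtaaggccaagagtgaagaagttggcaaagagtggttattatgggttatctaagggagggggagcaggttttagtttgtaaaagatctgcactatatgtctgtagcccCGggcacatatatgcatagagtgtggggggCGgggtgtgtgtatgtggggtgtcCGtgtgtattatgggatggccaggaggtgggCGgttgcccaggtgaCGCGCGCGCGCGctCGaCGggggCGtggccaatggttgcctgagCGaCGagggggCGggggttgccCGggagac
Chd5: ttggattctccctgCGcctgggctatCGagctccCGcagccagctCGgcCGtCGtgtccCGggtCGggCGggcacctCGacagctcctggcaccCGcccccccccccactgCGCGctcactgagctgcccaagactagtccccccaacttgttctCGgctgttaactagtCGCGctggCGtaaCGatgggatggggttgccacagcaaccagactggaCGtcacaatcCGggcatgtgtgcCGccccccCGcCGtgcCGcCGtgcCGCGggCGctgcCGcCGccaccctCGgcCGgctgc
Smarca5: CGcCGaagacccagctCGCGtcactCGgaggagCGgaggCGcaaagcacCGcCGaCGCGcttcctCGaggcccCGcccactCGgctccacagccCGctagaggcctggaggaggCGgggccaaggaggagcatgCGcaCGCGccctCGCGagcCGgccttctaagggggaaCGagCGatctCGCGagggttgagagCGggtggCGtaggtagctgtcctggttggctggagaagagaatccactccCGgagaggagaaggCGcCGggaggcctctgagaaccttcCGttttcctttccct
Smarca1: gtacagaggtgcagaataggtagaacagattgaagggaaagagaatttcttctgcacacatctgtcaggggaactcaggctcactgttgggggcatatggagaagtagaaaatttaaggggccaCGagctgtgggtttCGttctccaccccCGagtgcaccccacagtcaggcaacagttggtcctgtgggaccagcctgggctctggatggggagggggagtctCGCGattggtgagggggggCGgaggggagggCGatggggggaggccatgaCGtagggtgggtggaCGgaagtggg

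The CpG count of these windows did not order with the level in both pairs. It was 17 for Chd4 against 32 for Chd5, although Chd4 was far higher, and 32 for Smarca5 against 9 for Smarca1. A second Chd4 window, which starts farther into the gene, held 29. The Smarca1 window lies wholly inside the annotated gene, which on the minus strand starts at 47892974, so it does not cover that start. Over the 44 windows the median was 25, against 20 in 13599 windows of detected genes (mean of at least 10) and 7 in all 32851 windows. The GC box letters GGGCGG, searched on both strands, lay in 34 of the 44 windows (77.3%), in 61.9% of the windows of detected genes and in 35.7% of all windows. The letters GCGCATGC, the core bound by NRF1, lay in windows of Brd2, Smarca4, Smarca5, Smarcb1 and Smarcc1 (11.4% of 44), against 4.90% and 2.71%. The letters TATAAA lay in windows of Arid5b and Smarcd2 (4.55%), against 7.13% and 13.6%. These matches describe letters, not binding, and windows of the same gene can overlap.

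Nearly all of these genes were expressed. Detection, a mean normalized count of at least 10, was reached by 46 of 48 genes, against 71.6% of all genes. A mean of at least 1000 was reached by 18, against 15.2% of all genes. Brd8dc had a mean of 9.24 ± 1.40 (SD, n = 3), and Smarca5-ps had 3 reads in all, none of them in replicate 3, where a count of 0 allows a normalized count of up to 3.59. The pseudogene Smarce1-ps1 passed with a mean of 10.2 and 40 reads, and 64.6% of its 50-base stretches also occur in other genes, among them its parent Smarce1. Ino80dos, with 39.6 ± 12.3, overlaps exons of Ino80d and Ndufs1 on the opposite strand, and the strand setting of the counting is not given in the sources used here.

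**Figure D1:**
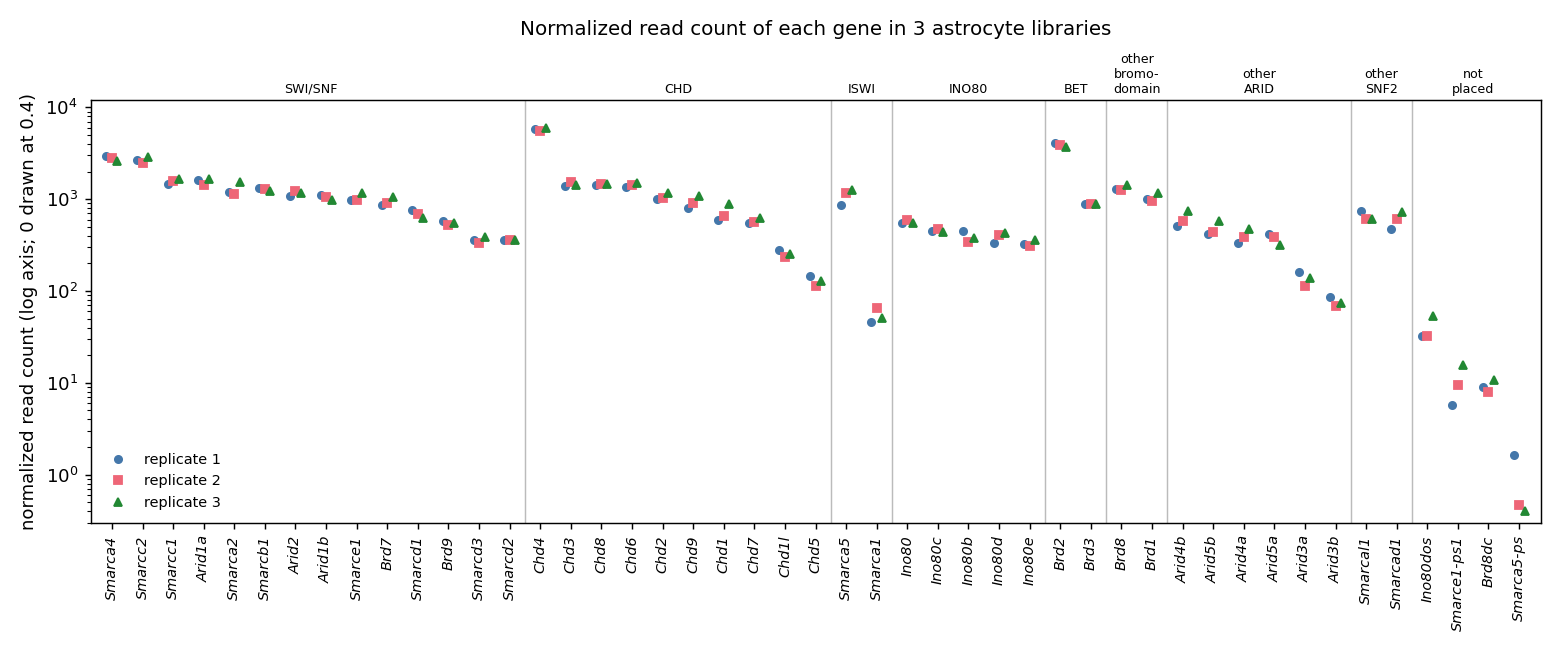
Normalized read count (log axis) of 47 of the 48 genes in replicates 1, 2 and 3, grouped by complex; each point is 1 library and a count of 0 is drawn at 0.4. Chd4, at 5537 to 5892, and Brd2, at 3702 to 4120, stand highest, and Smarca1, Chd5, Arid3b and the entries not placed in a complex stand lowest.

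To compare genes, values were divided by exon length, and each gene's log2 level per kilobase was set against that of the median detected gene in the same library. With limma and Benjamini-Hochberg adjustment over 13897 genes, 25 of the 46 detected genes lay above the median gene (adjusted p under 0.05) and 15 lay below. Over all genes, 45.5% lay above and 44.9% below, so calls in either direction are common. The median of the 46 genes was 0.25 on the log2 scale, against -0.01 over all detected genes. This difference did not hold where the mean was at least 100: there 25 of 42 genes (59.5%) and 59.5% of all genes lay above the median gene, with medians of 0.36 and 0.61. The share above the median gene is thus the background share at that depth. The order of the 46 levels per kilobase was resolved only in part, since 37 of 45 neighbours in it had ranges over libraries that overlapped. Chd4 stood alone at the top with 714 ± 22.3 normalized counts per kilobase, above Brd2 at 499 ± 26.7, Smarcc2 at 487 ± 36.9 and Smarca4 at 430.3 ± 27.0. The ranges of Brd2 and Smarcc2 overlapped, as did those of Smarcc2 and Smarca4, and Smarca4 did not overlap the next gene, Ino80b.

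**Figure D2:**
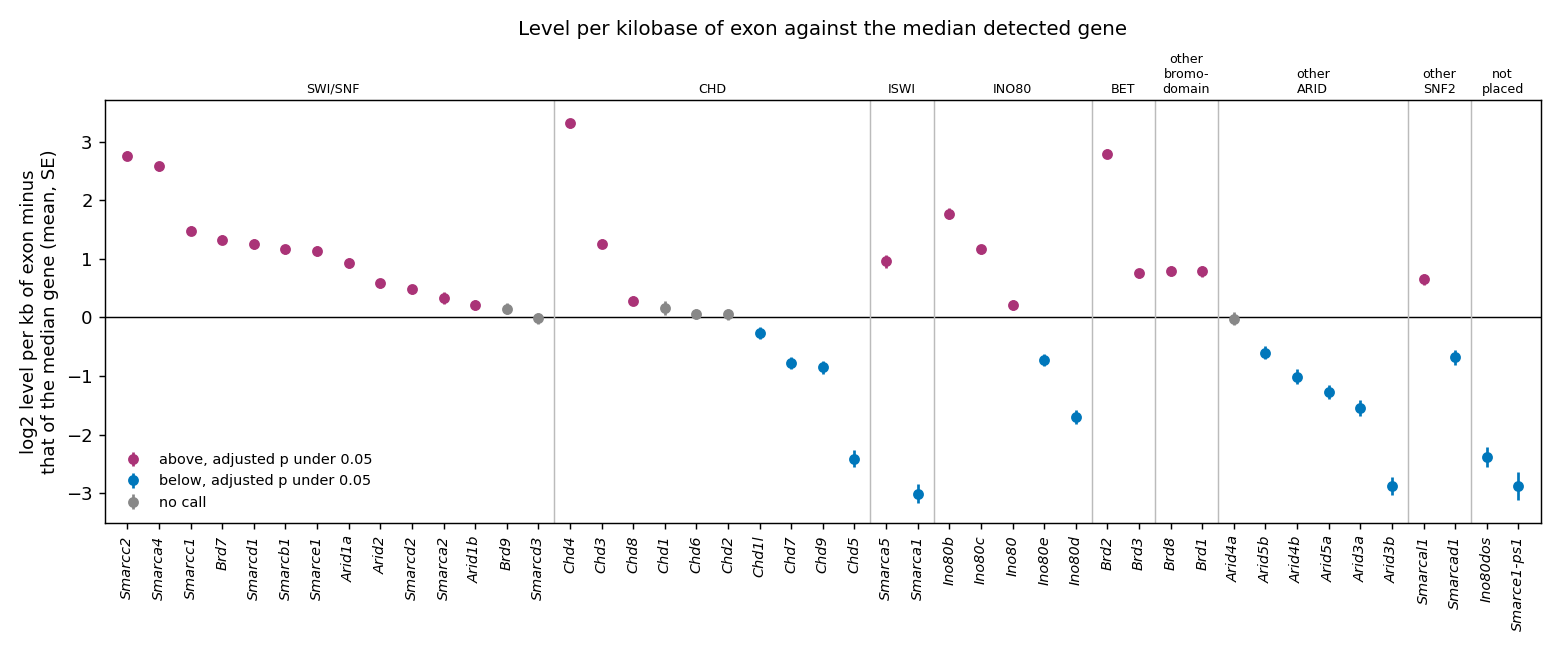
Log2 level per kilobase of exon minus that of the median gene, as the mean of 3 libraries with the limma standard error, for 45 of the 46 detected genes, grouped by complex. Of the 14 SWI/SNF genes 12 lie above 0 with a call and none below, while 5 of the 6 other ARID genes lie below. Of all detected genes 45.5% lie above and 44.9% below.

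Most SWI/SNF genes stood above the median gene. Of 14 genes, 12 lay above the median gene, none lay below, and Brd9 and Smarcd3 had no call, at 0.15 and -0.01 on the log2 scale (limma, adjusted p = 0.124 and 0.891). The median of the group was 1.03, and over 13 alternatives 10 to 12 of them lay above. All 14 had a mean of at least 100, and of all genes with such a mean 59.5% lay above and 28.4% below. Arid1b, the weakest of the 12 at 0.22 ± 0.09 (limma, adjusted p = 0.0437), changed sign with the longest transcript as length. Its call also ended with a pseudocount of 5, without a trend in the prior, with its own variance, with TMM scaling, without replicate 1 and without replicate 2. Smarca2 lost its call with its own variance and without replicate 3, and Smarcd2 with no division by length. The core scaffold gene Smarcc2 stood 2.76 ± 0.08 (SE) above the median gene on the log2 scale, and Smarcb1, the tumour suppressor subunit that grips the nucleosome, stood 1.17 ± 0.08 above it. Smarce1, a DNA-binding subunit with an HMG box, stood 1.13 ± 0.08 above it. Of its 50-base stretches 15.0% also occur in other genes, Smarce1-ps1 among them, so its reads are uncertain.

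Among the motor subunits, which exclude each other within a complex, Smarca4 (also named Brg1) exceeded Smarca2 (Brm). Smarca4, on chromosome 9 from 21616169 to 21704230 of mm10, had normalized counts of 2943, 2819 and 2597 in replicates 1, 2 and 3, a mean of 2786 ± 175 (SD, n = 3). Smarca2, on chromosome 19 from 26605050 to 26778322, had 1205, 1134 and 1551, a mean of 1297 ± 223. The ranges did not overlap, and replicate 3 held the lowest Smarca4 and the highest Smarca2. Per kilobase, the log2 difference of Smarca2 from Smarca4 was -2.25 ± 0.13 (SE), negative in 3 of 3 libraries (limma, adjusted p = 6.82e-07). By the same test 88.1% of all genes lay below Smarca4 and 8.39% above it. Smarca4 made up 84.3%, 84.6% and 78.7% of the summed level per kilobase of both genes. The size of this difference rests on the length used: annotated exons of Smarca2 cover 14269 bases in union but its longest transcript has 5921, against 6475 and 6376 for Smarca4. With the longest transcript the difference was -1.01 and the share of Smarca4 66.7% ± 5.04, and with no division by length the difference was -1.11.

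Subunits that define SWI/SNF subtypes were all present. Arid1a, which marks canonical BAF together with Arid1b, had normalized counts of 1608, 1434 and 1653. Arid1b had 1115, 1061 and 974.6, below Arid1a in each library. Per kilobase the log2 difference was -0.71 ± 0.13 (limma, adjusted p = 1.62e-07), where 63% of all genes lay below Arid1a and 28.1% above it. Arid2, the ARID subunit of the PBAF subtype, had 1087, 1218 and 1154, and its log2 level per kilobase differed from that of Arid1a by -0.34 ± 0.13 (limma, adjusted p = 0.00955). That call ended without replicate 1, where the difference was -0.28 (limma, adjusted p = 0.147), and when each gene kept its own variance (adjusted p = 0.0915 in limma). Brd7, the bromodomain subunit of PBAF, stood at 181 ± 19.5 normalized counts per kilobase, and Brd9, that of the non-canonical subtype, at 79.6 ± 4.03, with ranges that did not overlap and no test of the difference.

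The 2 core scaffolds and the Smarcd subunits differed within their families. Smarcc2 had normalized counts of 2704, 2503 and 2913 and Smarcc1 had 1466, 1569 and 1677, without overlap. Smarcc2 lay 1.28 ± 0.10 above Smarcc1 on the log2 scale per kilobase (limma, adjusted p = 1.62e-07), where 19.3% of all genes lay above Smarcc1 and 73.1% below it. With no division by length the difference was 0.78. Smarcd1 had 764, 683 and 618, Smarcd2 358, 359 and 356, and Smarcd3 362, 336 and 392. Smarcd1 was the highest in each library, and per kilobase the ranges of all 3 genes were apart. The log2 difference per kilobase from Smarcd1 was -0.77 ± 0.12 for Smarcd2 and -1.26 ± 0.13 for Smarcd3 (limma, adjusted p = 0.000171 and 1.25e-05), where 68.1% of all genes lay below Smarcd1 and 22.2% above it. Smarcd3 shares 48.2% of its exon length with Chpf2 on the opposite strand, which had a mean of 650.5, so its reads are uncertain.

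Partner genes of SWI/SNF outside the symbol rule were read beside them. Of 16 such genes 14 were detected, 5 lay above the median gene and 8 below it. Of all detected genes 45.5% lay above and 44.9% below. In neural development the progenitor subunits Actl6a, Phf10, Dpf2 and Ss18 give way to Actl6b, Dpf1, Dpf3 and Ss18l1 in neurons. Actl6a had normalized counts of 683, 648 and 644.5, whereas Actl6b had 4.88, 2.83 and 5.98, from 5 to 6 reads per library. Per kilobase Actl6a stood at 169 ± 5.50 (SD, n = 3), Dpf2 at 138 ± 14.4, Phf10 at 137 ± 6.78 and Ss18 at 79.4 ± 3.24. Dpf1 stood at 55.0 ± 5.11, Ss18l1 at 23.6 ± 0.408, Dpf3 at 12.9 ± 1.03 and Actl6b at 1.07 ± 0.375. The 4 progenitor genes thus exceeded the 4 neuronal ones per kilobase in each library, a description with no test. The summed level of the neuronal markers was 1151, 767 and 1174, and its part in these values was not tested. Of the 16 genes Actl6a had the highest mean per kilobase, but Bcl7b exceeded it in replicate 1 and Pbrm1 in replicates 2 and 3. Actl6b had the lowest mean, with a range that overlapped that of Bcl11b. Of the detected genes Bcl11a, a zinc finger subunit, was the lowest in each library at 2.48 ± 0.509.

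The CHD family spanned the widest range of the named complexes. Of 10 genes, Chd4, Chd3 and Chd8 lay above the median gene, and Chd1l, Chd5, Chd7 and Chd9 lay below it, with no call for Chd1, Chd2 and Chd6. All 10 had a mean of at least 100, and of all genes with such a mean 59.5% lay above and 28.4% below. The CHD counts depend on length, since 8 lay above and 2 below with no division by length, and 5 above and 3 below with the longest transcript. Chd7 and Chd9 changed sign without the division, and Chd8 lost its call without replicate 2. Chd1l, at -0.26 ± 0.10 (limma, adjusted p = 0.0298), lost its call with the longest transcript, with its own variance, without replicate 2 and without replicate 3. Chd4, on chromosome 6 from 125095981 to 125130591, had normalized counts of 5754, 5537 and 5892, a mean of 5727 ± 179 (SD, n = 3). Chd3, the alternative NuRD motor, had 1384, 1535 and 1425, and Chd5, on chromosome 4 from 152338651 to 152390194, had 144, 114 and 128. The 3 genes did not overlap in any library. Per kilobase, the log2 difference from Chd4 was -2.06 ± 0.09 for Chd3 and -5.73 ± 0.15 for Chd5 (limma, adjusted p = 8.86e-10 and 4.31e-11), where 93.6% of all genes lay below Chd4 and 4.48% above it. Chd4 gave 79.4% ± 1.15 (SD) of the summed level per kilobase of the 3, Chd3 19.1% ± 1.28 and Chd5 1.49% ± 0.170. Chd5 was lowest in replicate 2, as was the summed level of the neuronal markers. Its reads, however, had no call between libraries (chi-square adjusted p = 0.0929). Chd5 was highest in replicate 1 and the neuronal sum in replicate 3, and a link between them was not tested.

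NuRD partner genes stood high with Chd4. All 12 were detected, 10 lay above the median gene and none below, with a list median of 2.01 on the log2 scale. The histone-binding gene Rbbp7 had the highest mean per kilobase, 876 ± 49.0, and Mta3, a metastasis-associated scaffold gene, the lowest, 71.7 ± 3.72. Mbd3 exceeded Rbbp7 in replicate 1, and Cdk2ap1 lay under Mta3 in replicate 3. This list is 83.3% above, against 45.5% of all genes, as a description. All 12 had a mean of at least 100, and of all genes with such a mean 59.5% lay above.

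The Chd6 to Chd9 subfamily was led by Chd8, a gene recurrently mutated in autism. Chd8 had normalized counts of 1410.4, 1468 and 1455 and Chd6 had 1353, 1426 and 1484, close to Chd8 in counts but without overlap per kilobase. Chd7, the gene of CHARGE syndrome, had 549, 560.4 and 625, and Chd9 had 803, 901 and 1071. Both lay under Chd8 in each library. Per kilobase the log2 differences from Chd8 were -0.23 ± 0.09 for Chd6, -1.06 ± 0.10 for Chd7 and -1.14 ± 0.11 for Chd9 (limma, adjusted p = 0.0297, 1.09e-05 and 1.49e-05), where 50.9% of all genes lay below Chd8 and 39.9% above it. The call of Chd6 ended without replicate 1 (-0.22, adjusted p = 0.0909 in limma), without replicate 2 (-0.22, adjusted p = 0.152 in limma) and with no division by length (-0.02, adjusted p = 0.754 in limma). With no division by length, the difference of Chd9 was -0.65. Chd1, which binds methylated histone tails at active promoters, had 594, 655 and 875, and Chd2 had 1003, 1018 and 1174. Per kilobase Chd2 differed from Chd1 by -0.11 ± 0.22 on the log2 scale (limma, adjusted p = 0.652), with a 95% interval from the spread of the 3 differences of -0.53 to 0.31, where 44% of all genes lay below Chd1 and 38.1% above it. Chd2 lay above Chd1 by 0.41 with the longest transcript (limma, adjusted p = 0.0776) and by 0.60 with no division by length (limma, adjusted p = 0.00621). Chd2 shared 18.4% of its exon length with the transcript 1810026B05Rik on the same strand, which had a mean of 12.5.

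**Figure D3:**
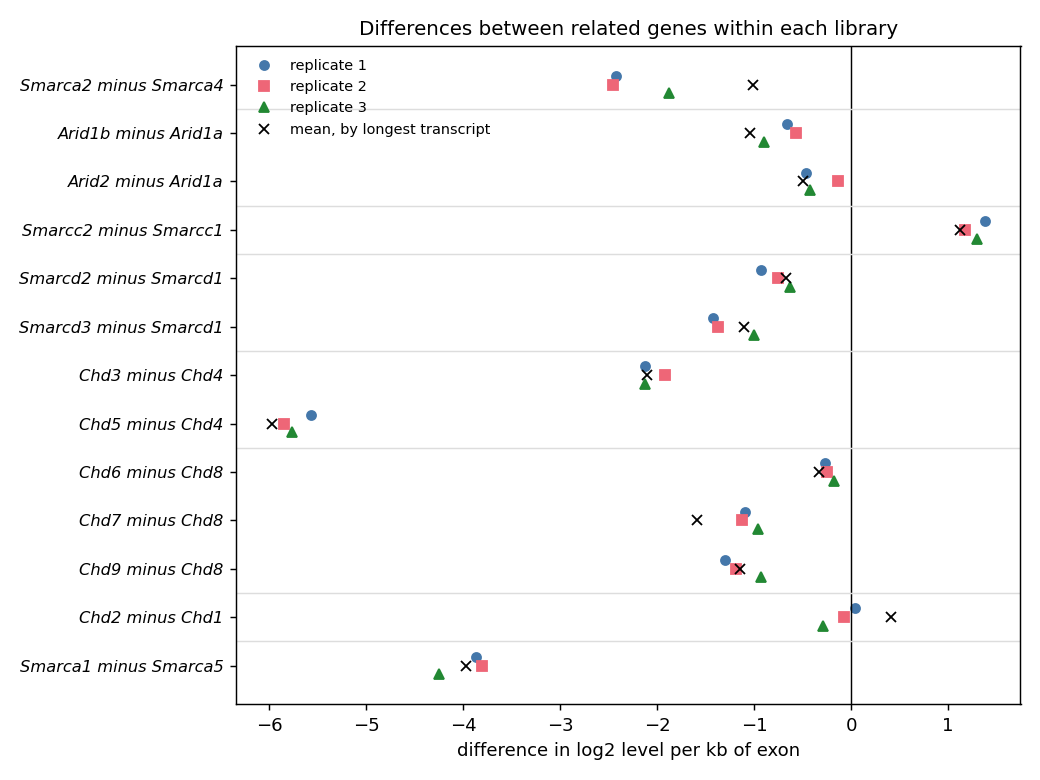
Difference in log2 level per kilobase of exon for 13 pairs of related genes, with 1 point per library; the cross is the mean when the longest transcript gives the length. Chd5 lies furthest below its reference, at -5.85 to -5.57, and Smarca2 minus Smarca4 moves from -2.25 to -1.01 with the length used.

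Of the 2 ISWI motors, Smarca5 (Snf2h) carried nearly all the signal. Smarca5, on chromosome 8 from 80698507 to 80739497, had normalized counts of 865, 1166 and 1266, a mean of 1099 ± 209 (SD, n = 3), lowest in replicate 1. Smarca1 (Snf2l), on chromosome X from 47809368 to 47892974, had 45.5, 64.6 and 51.4, a mean of 53.9 ± 9.77. The log2 difference per kilobase of Smarca1 from Smarca5 was -3.98 ± 0.27, or 15.7-fold, with the same sign in 3 of 3 libraries (limma, adjusted p = 1.76e-49), where 60.1% of all genes lay below Smarca5 and 24% above it. That p rests on a spread pooled over all genes, and with each gene's own variance it was 0.0158 (limma, adjusted). Smarca5 gave 93.4% to 95.1% of the summed level of both. Of the 50-base stretches of Smarca5 28.2% also occur in other genes, among them Smarca5-ps, so its reads are uncertain. The ISWI partner list held 9 genes, of which 4 lay above and 4 below the median gene. All 9 had a mean of at least 100, and of all genes with such a mean 59.5% lay above and 28.4% below. Per kilobase the list ran from Pole3, a histone-fold subunit, at 434 ± 19.0 down to Cecr2, a bromodomain subunit, at 6.63 ± 1.17.

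INO80 genes divided by subunit. The motor gene Ino80 had normalized counts of 555, 589 and 549, and it lay 0.21 ± 0.08 above the median gene on the log2 scale per kilobase (limma, adjusted p = 0.0393), a call that ended without replicate 1, without replicate 2, without a trend in the prior and with TMM scaling. With the longest transcript as length its sign changed. The small subunit genes Ino80b and Ino80c lay 1.77 ± 0.09 and 1.16 ± 0.08 above it, whereas Ino80e and Ino80d differed from it by -0.73 ± 0.10 and -1.70 ± 0.13. Ino80b and Ino80e lost their calls and Ino80d changed sign with no division by length. Ino80b was highest in replicate 1, at 453 against 343 and 381. Ino80e shares 14.4% of its exon length with Doc2a on the opposite strand, which had a mean of 2.17. In the list of INO80, SRCAP and TIP60 partners, 12 of 18 genes lay above the median gene and 4 below. Over all detected genes the shares were 45.5% and 44.9%, against 66.7% and 22.2% in this list. Where the mean was at least 100, as in all 5 INO80 genes, 59.5% of all genes lay above and 28.4% below. The median of the mean counts was 430 in the list of INO80, SRCAP and TIP60 partners, against 349 over all detected genes. The AAA+ ATPase gene Ruvbl2, shared by these complexes, was the highest per kilobase at 471 ± 79.4. The lowest was Srcap, the motor that deposits a histone variant, at 3.61 ± 0.295.

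Of the BET genes described here, Brd2 stood far above Brd3; both act as acetyl-lysine readers at active genes. Brd2, on chromosome 17 from 34112023 to 34122634, had normalized counts of 4120, 3896 and 3702, a mean of 3906 ± 209 (SD, n = 3). Brd3 had 883, 887 and 886, a mean of 886 ± 2.05. Per kilobase Brd2 stood at 499 ± 26.7 normalized counts and Brd3 at 121 ± 0.279, with ranges that did not overlap and no test of the difference. Against the median gene Brd2 lay 2.80 ± 0.07 higher and Brd3 0.75 ± 0.08 higher on the log2 scale (limma, adjusted p = 4.82e-09 and 1.84e-05). In all, 12 of the 13 pairs of related genes tested across the complexes differed, and in 1 of these, Smarcc2 against Smarcc1, the first-named gene was the higher. Most genes of any kind differ from these references by the same test. For Chd4, 93.6% of all genes lay below and 4.48% above, and for Chd1 44% lay below and 38.1% above. The count of pairs is thus not particular to related genes.

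Of the other bromodomain genes, Brd8 and Brd1 were close to each other. Brd8, a subunit of the TIP60 acetyltransferase complex, stood at 124 ± 9.30 normalized counts per kilobase and Brd1, a scaffold of histone acetyltransferase complexes, at 124 ± 13.6. Of 21 bromodomain genes outside the symbol rule, 9 lay above the median gene and 10 below. In this list that is 42.9% and 47.6%, near the 45.5% and 44.9% of all detected genes. Trim28, the corepressor of KRAB zinc finger proteins, was the highest of the list per kilobase at 734 ± 87.7, and Trim66 the lowest at 2.10 ± 0.695.

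ARID genes outside SWI/SNF were lower per kilobase. None of the 6 lay above the median gene per kilobase, where 45.5% of all detected genes did, and 5 lay below, where 44.9% did. Arid4a had no call, and the list median was -1.14 on the log2 scale. With no division by length 2 lay above and 2 below, and Arid4a, Arid4b, Arid5a and Arid5b changed sign. Arid4b also changed sign with the longest transcript, and Arid4a without replicate 1. Arid4b and Arid4a, whose products join the Sin3 deacetylase complex, had means of 608.1 ± 123.0 and 400 ± 70.8 normalized counts. Arid5b, a factor of adipocyte and chondrocyte differentiation, had 479 ± 82.8, and Arid5a, which binds RNA and stabilizes cytokine transcripts, had 374 ± 51.5. Arid3a and Arid3b, DNA-binding factors best known from B cells and development, had 137 ± 24.0 and 76.8 ± 9.15. The 2 other SNF2-like genes lay on either side of the median gene, Smarcal1, an annealing helicase at stalled forks, at 0.66 ± 0.09 and Smarcad1, a remodeler of heterochromatin and DNA ends, at -0.68 ± 0.13. Smarcad1 changed sign with the longest transcript and with no division by length, and Smarcad1 and Arid5b lost their calls with their own variance. Of 9 further SNF2 helicase genes none lay above and 7 below, from Atrx at 85.8 ± 15.2 to Rad54l at 23.3 ± 0.604 normalized counts per kilobase on average, where Ercc6 lay under Rad54l in replicate 2. All 9 had a mean of at least 100, and of all genes with such a mean 59.5% lay above the median gene and 28.4% below.

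Between libraries, the reads of 29 of the 46 genes varied beyond sampling noise in a chi-square test against the reads each size factor predicts, adjusted over 13941 genes. The share over all genes was 55.3%, and 64.4% where the mean was at least 100, a range in which 28 of 42 of the remodeler and bromodomain genes were called. The count is thus near the background, and it fell to 19 without replicate 1, 25 without replicate 2 and 18 without replicate 3, with fewer reads in the test. Among the calls lost without 1 library were Smarca5 (replicate 1), Chd4 (replicate 2) and Smarca2, Smarca4 and Chd1 (replicate 3). The differences were small: 3 genes had an SD of log2 values above 0.3, against 18.2% of all detected genes. They were Smarcad1 at 0.31, Ino80dos at 0.41 and Smarce1-ps1 at 0.65. Ino80dos and Smarce1-ps1 had means of only 39.6 and 10.2, and the 18.2% includes genes of low count, so the comparison is not matched for depth. Where the mean was at least 100, the median SD was 0.11 over the 42 genes and 0.14 over all genes.

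Several of the largest differences among well-counted genes set replicate 1 against replicate 3. Smarcad1 had normalized counts of 474, 607 and 727, Chd1 594, 655 and 875, and Arid4b 507, 573 and 745. In these 3 genes, and in Arid4a, Arid5b, Chd9 and Smarca5, replicate 1 was the lowest and replicate 3 the highest. Smarca5 was 1.46-fold and Smarcad1 1.53-fold higher in the highest library than in the lowest (chi-square adjusted p = 3.46e-19 and 9.85e-12). Arid5a, with 419.7, 384 and 318, and Smarcd1 ran the other way. Smarca2 and Arid3a followed neither order. Smarca2 was highest in replicate 3, at 1551, and lowest in replicate 2, at 1134 (chi-square adjusted p = 4.37e-18). Arid3a was highest in replicate 1, at 160, and lowest in replicate 2, at 112 (chi-square adjusted p = 0.00246). At the other extreme, Brd3 had an SD of log2 values of 0.0033 and Smarcd2 one of 0.0062. These lay at the 0.066 and 0.196 percentile of genes of similar mean (0.5 to 2 times their own). Both are the smallest SDs picked from the 46 genes, and their reads differed less than counting error alone usually gives (chi-square adjusted p = 0.995 and 0.993). They are thus not read as steadier expression. Replicate 3 was the highest library for 25 of the 46 genes (54.3%), and for 35.7% of all detected genes.

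Transcript GC content moved with the differences from replicate 1. Over the 42 genes whose mean was at least 100, the log2 difference of replicate 3 from replicate 1 correlated with the GC percentage of the longest transcript with a Pearson's r of -0.74 and a Spearman's rho of -0.73. Over all 10556 genes with such a mean and an annotated length the values were -0.51 and -0.62, so the relation is not limited to these genes. Genes are not independent replicates, the points share the same 2 libraries, and no p is given. For replicate 2 against replicate 1 the coefficients over the 42 genes were -0.70 and -0.74, and for replicate 3 against replicate 2 -0.35 and -0.36. The 21 genes of lower GC (39.1% to 49.4%) had a median difference of 0.23 between replicates 3 and 1, and the 21 of higher GC (51.1% to 60.5%) one of -0.01. The summed level of the 8 microglial markers was 24252 in replicate 1 and 16879.8 in replicate 3, and that of the 6 cell cycle genes was 9074 and 11030.0. Replicate 1 also stood apart in Xist (3000.5 against 0.472 and 4.78) and Ddx3y (0.813 against 688 and 936), so a difference of replicates 2 and 3 from replicate 1 coincides with one in sex-linked genes and, with 1 such library, cannot be told apart from it. The part of GC content, depth, microglia or cell cycle in these differences was not tested.

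**Figure D4:**
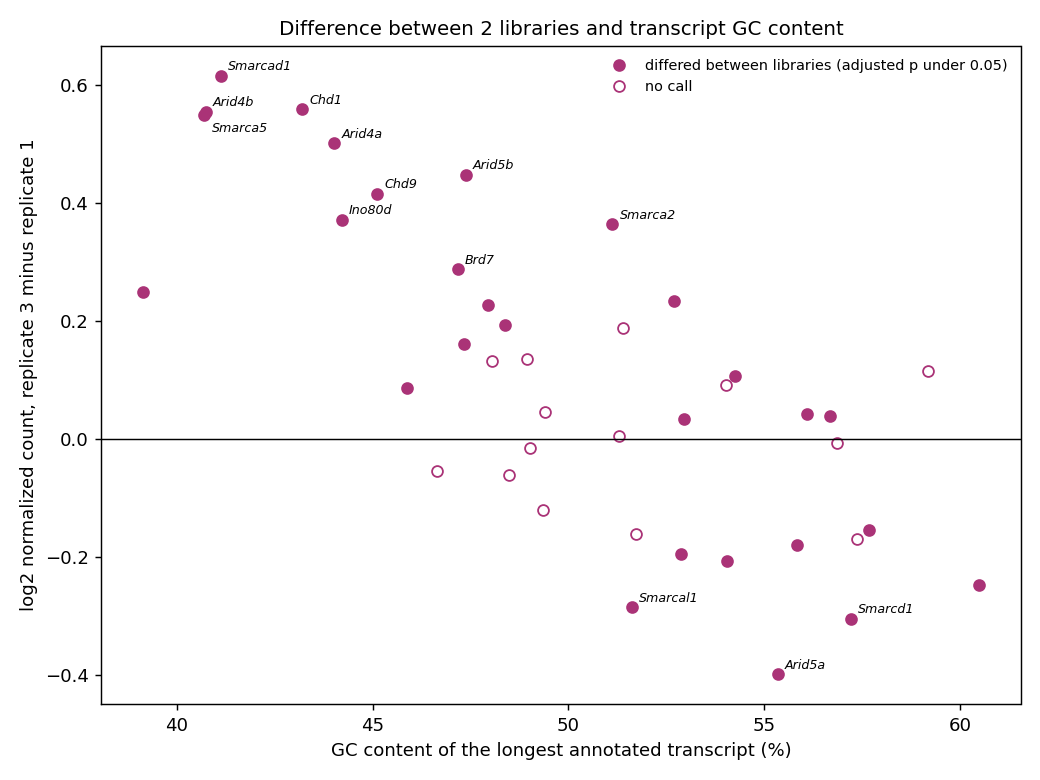
Log2 normalized count of replicate 3 minus replicate 1 against the GC content of the longest annotated transcript, for the 42 genes whose mean was at least 100; filled points differed between libraries in the chi-square test. Genes of low GC content such as Smarcad1 (0.62), Smarca5 (0.55) and Chd1 (0.56) lie above 0, and Arid5a lies lowest, at -0.40.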

How the data were processed

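Poly(A) RNA of 3 wild-type astrocyte cultures was sequenced from stranded libraries, per the labels. The deposited table holds a signal per gene, a read count divided by 1 size factor per library, as deposited by the authors; the submitters' processing notes name DESeq2 and build mm10. The deposited mean column was not used. For the aligner, counter, strand setting and gene filter: not given in the sources used here. Values were whole multiples of 1 read (100% within 0.05 reads), so reads were recovered, with size factors of 1.23, 2.12 and 0.836. Floors cover counting error only, while the interval given for Chd2 minus Chd1 covers the spread of the differences between the 3 libraries.

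Gene positions, exon lengths (union of exons) and transcripts came from GENCODE vM21, which held 19366 of the identifiers (99.5%). Of 2570 genes with a blank symbol, 0 matched the rule by annotated name. Values were log2-transformed with a pseudocount of 1, so folds of low genes are understated. Level tests were intercept-only limma fits with a trended prior on differences within a library, over annotated genes whose mean reached 10, and their p-values draw mainly on a spread shared across genes. These level-test p-values thus say little of a gene's own spread between these 3 cultures. With each gene's own variance, the adjusted p was 0.00862 for Smarca2 minus Smarca4 and 0.0259 for Arid1b minus Arid1a (limma). An exact sign-flip test over 3 libraries cannot give a p below 0.25. Between libraries, genes whose mean reached 10 and that had at least 30 reads were tested by chi-square on recovered reads. As an alternative, edgeR quasi-likelihood on recovered reads placed 6390 genes (46%) above and 6217 (44.7%) below the median gene, against 6322 and 6242 in limma. The alternatives also covered pseudocounts, length, scaling, the prior, filters and each replicate left out. Procedures were tested on simulated data.

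All genes matched by the symbol rule are counted, and all but 1, which is not reported here, are named, as are the highest and lowest gene per kilobase of each partner list and 8 SWI/SNF partners that switch in neurons. Members, lists and pairs were chosen with earlier results of these data known. Python 3.11.15, numpy 2.4.6, pandas 2.3.3, SciPy 1.17.1, matplotlib 3.10.9, R 4.3.3, limma 3.58.1, edgeR 4.0.16 and DESeq2 1.42.0 were used.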

Additional observations from a re-analysis of the deposited data

How the results depend on the processing

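No paired analysis was possible because there is 1 group, and differences between genes were already taken within each library. The counts of genes detected, above the median gene and of pairs that differ stayed within 1.5 times under every alternative run. With no division by length, 7 genes lay below the median gene in place of 15, as division lowers long genes by construction. The number of genes differing between libraries was 18 to 25 with 1 replicate left out, against 29, and an SD of log2 values above 0.3 picked 3. Of 143 alternative values for the pairs, 136 kept direction and call, 5 lost the call (Arid2 and Chd6, given above) and 2 changed sign, both of Chd2 minus Chd1, to 0.41 with the longest transcript and 0.60 with no division by length. Depth limits the low genes most: 525 reads in all lay behind Chd5 and 236 behind Smarca1.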
